A study of Homo sapiens with 16 samples.

Results

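The genes described are 9 human genes whose proteins carry a bromodomain, as BRD9 does: BRD1, BRD2, BRD3, BRD7, BRD8, BRPF1, BRPF3, CECR2 and ATAD2. They were chosen by symbol, and each matched 1 of the 57820 genes in every library. The question was whether other bromodomain genes changed in RNA level when BRD9 was deleted. RNA was sequenced from G401 cells, an established line of a malignant kidney rhabdoid tumor without functional SMARCB1, a subunit of canonical SWI/SNF chromatin remodelers. BRD9 KO cells, in which CRISPR-Cas9 was aimed at BRD9, were compared with LacZ cells, which received a guide against a bacterial gene that human cells do not have. Both were harvested on days 1, 2, 3 and 5, with 2 libraries for each guide on each day, 8 groups and 16 libraries in all. The study's methods describe guides delivered by lentivirus into cells that stably express Cas9 and name no clone for this experiment, so a library may mix edited and unedited cells. The day from which time was counted is not given in the sources used here.

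A bromodomain is a fold that binds acetylated lysine, chiefly on histone tails, and proteins that carry it bring other activities to acetylated chromatin. BRD9 belongs to the non-canonical form of SWI/SNF. The 9 genes serve other machines. BRD2 and BRD3 are BET proteins, which bind acetylated histones at active genes and help RNA polymerase II elongate. BRD7 is a subunit of PBAF, another form of SWI/SNF, and is a close relative of BRD9. BRD8 is a subunit of the TIP60 acetyltransferase complex. BRPF1, BRPF3 and BRD1 (also called BRPF2) are scaffolds of the acetyltransferases KAT6A, KAT6B and KAT7. CECR2 pairs with an ISWI remodeling ATPase, and ATAD2 is an AAA ATPase with a bromodomain that is produced mostly around DNA replication. On GRCh37, BRD2 (ENSG00000204256.8) spans chr6:32936371-32949282, BRD7 chr16:50347398-50402899, BRD8 chr5:137475459-137514642 and CECR2 chr22:17840839-18037852.

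The libraries held 9185808 to 16560669 counts in BRD9 KO and 11252814 to 15430060 in LacZ cells. SMARCB1 was listed at 0 in 15 of the 16 libraries, VIM stood at 1366 to 1857 TPM in BRD9 KO and 1425 to 1922 TPM in LacZ libraries, and the blood cell genes PTPRC and CD3E were at 0 in all. TPM is a level per transcript length, scaled to a fixed total in each library. CPM is a count scaled to the library's total in tested genes, after that total was adjusted by a factor for each library (TMM). The targeted gene came out as its label says. BRD9 had 16.7 and 17.1 CPM on day 1, 20.0 and 16.6 on day 2, 25.7 and 25.5 on day 3 and 25.9 and 22.5 on day 5 in BRD9 KO cells. It had 47.2 and 49.4, 45.8 and 47.6, 62.2 and 64.5, and 62.4 and 60.6 CPM on the same days in LacZ cells. Averaged over the 4 days its log2 fold change was -1.38 (standard error, SE, 0.036), a difference of -61.6%, with an adjusted p of 2.62e-15 by edgeR's quasi-likelihood test. BRD9 RNA was therefore still detected in every BRD9 KO library, and in bulk RNA fewer cells with BRD9 RNA and less of it per cell cannot be told apart.

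The 9 genes covered a wide range of levels, and their order was nearly the same under both guides. BRD2 was the most abundant at a median of 150.0 TPM (range 133.9 to 174.9, n = 8) in BRD9 KO and 142.1 TPM (136.6 to 149.2, n = 8) in LacZ libraries. BRD8 followed at a median of 54.4 TPM in BRD9 KO and 58.6 TPM in LacZ libraries, BRD7 at 52.9 TPM in BRD9 KO and 55.2 TPM in LacZ libraries, and ATAD2 at 39.9 TPM in BRD9 KO and 43.0 TPM in LacZ libraries. The ranges of BRD8 and BRD7 overlapped, so these neighbours were not separated by level. BRPF3 stood at medians of 28.8 TPM in BRD9 KO and 29.5 TPM in LacZ libraries, BRD1 at 26.5 TPM in BRD9 KO and 27.6 TPM in LacZ libraries, and BRD3 at 25.7 TPM in BRD9 KO and 28.5 TPM in LacZ libraries, and these 3 overlapped as well. BRPF1 lay below them at 16.7 TPM in BRD9 KO and 16.1 TPM in LacZ libraries. CECR2 was lowest at 4.43 TPM (3.84 to 5.25, n = 8) in BRD9 KO and 3.91 TPM (2.94 to 4.71, n = 8) in LacZ libraries. BRD9 itself was at a median of 15.4 TPM in BRD9 KO and 41.7 TPM in LacZ libraries, which placed it between BRPF1 and CECR2 in BRD9 KO cells and just under ATAD2 in LacZ cells.

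**Figure D1:**
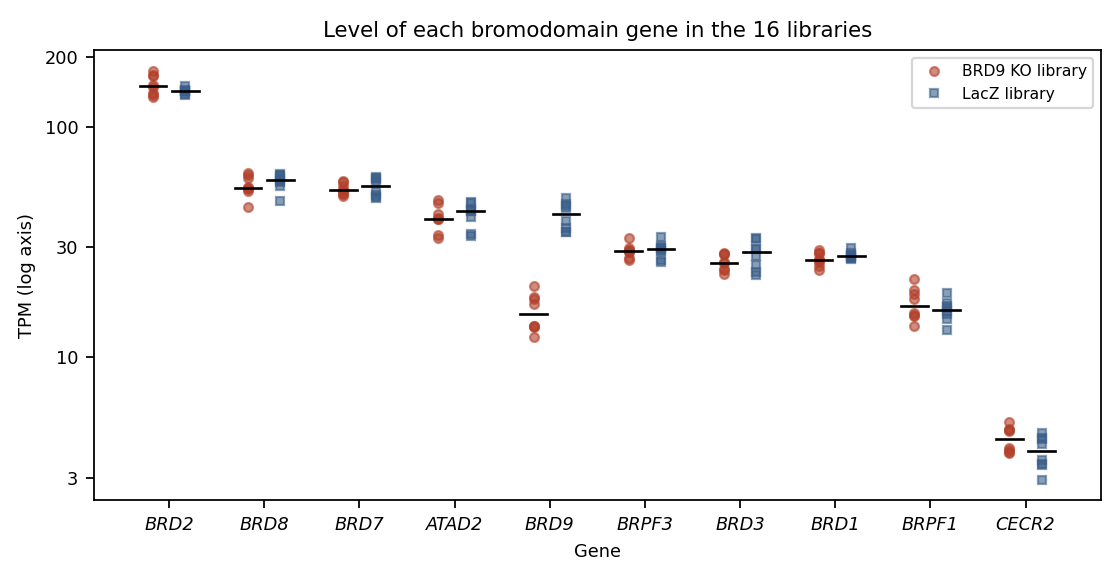
Level of the 9 bromodomain genes and BRD9 in TPM on a log axis, with one point per library (BRD9 KO circles left, LacZ squares right, 8 each) and a bar at the median. BRD9 is the gene whose points separate fully, with medians of 15.4 TPM in BRD9 KO and 41.7 TPM in LacZ libraries, while the points of each of the 9 other genes overlap between the guides.

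None of the 9 genes changed on the scale of BRD9. Of the 36 differences between BRD9 KO and LacZ cells (9 genes on 4 days), 35 were under 0.2 in size on the log2 scale and the lowest and highest were -0.18 and 0.35. A gene was called where the adjusted p (Benjamini-Hochberg over all 15027 genes tested) was under 0.05 by edgeR's quasi-likelihood test. On day 1, 0 of the 9 genes were called, against 0.539% of all genes tested. BRD7 alone had an unadjusted p under 0.05 by edgeR that day, as did 10.2% of all genes tested. Limma also called 0 of the 9, and DESeq2 called 0 of the 6 to which it gave an adjusted p, which left out BRD1, BRPF1 and CECR2. On day 2 CECR2 was higher, 1 of 9, against 2.7% of all genes. On day 3 BRD2 was higher and ATAD2 lower, 2 of 9, against 10.4% of all genes. On day 5 BRD2 was higher and BRD7 and BRD8 lower, 3 of 9, against 15% of all genes.

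In the average of the 4 days 2 of the 9 genes were called, BRD2 higher and BRD1 lower, against 20.2% of all genes tested and 25.8% of the 7254 genes within the abundance range of the 9. The share of the 9 genes called was thus near the share of all genes. Their median log2 fold change was -0.037, against -7.74e-05 over all genes tested. Summed, the 9 genes took 719 to 768 CPM in BRD9 KO libraries and 712 to 764 CPM in LacZ libraries. The 2 libraries of a group are described by the study as biological replicates, and whether they came from separate infections is not stated. The p-values measure only the spread between such libraries. Its part beyond counting noise was small, with a common coefficient of variation of 0.023 by edgeR. The gap between the 2 libraries of a group had medians of 2.71% (BRD3) to 5.29% (CECR2) of their mean among the 9 genes, and reached 20.7% in BRPF1. The median chi-square between the 2 libraries, relative to that expected from counting alone, ran from 1.119 (LacZ day 5) to 1.329 (BRD9 KO day 2). Whether the standard errors and p-values cover variation between separate infections was not tested.

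**Figure D2:**
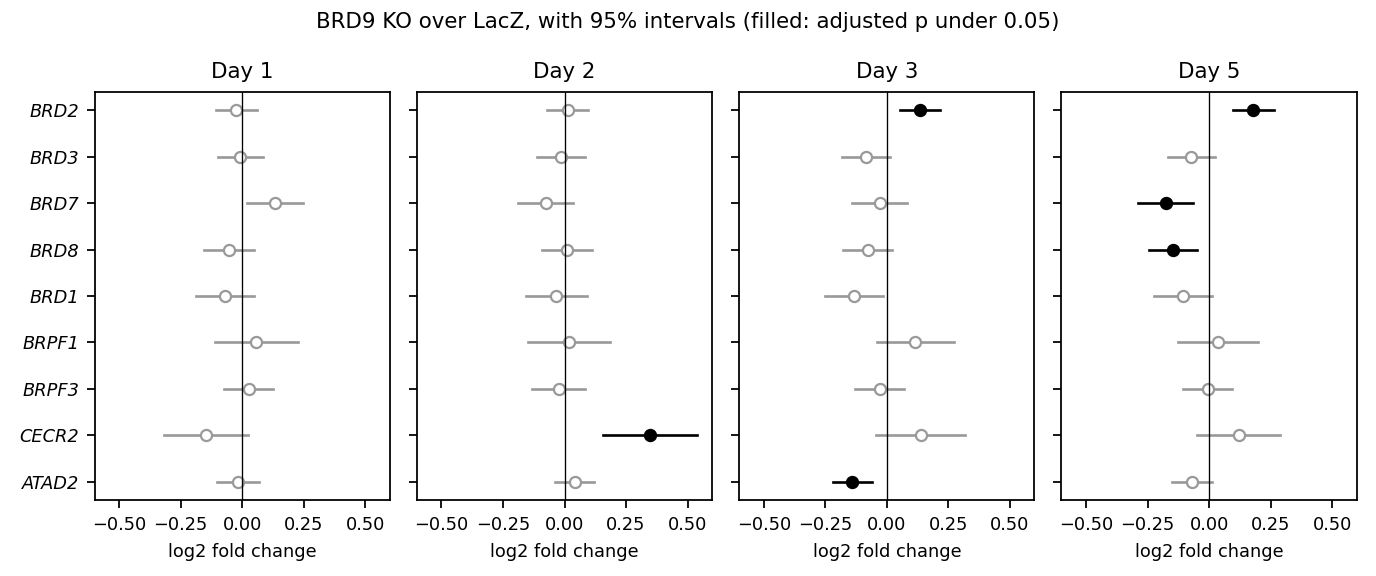
Log2 fold change of BRD9 KO over LacZ cells for the 9 genes on each day, with 95% intervals from edgeR's quasi-likelihood fit. Filled points have an adjusted p under 0.05, which holds for CECR2 on day 2, BRD2 and ATAD2 on day 3, and BRD2, BRD7 and BRD8 on day 5.

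BRD2 was higher in BRD9 KO cells on days 3 and 5. On days 1 and 2 it had 181 and 173, and 177 and 183 CPM in BRD9 KO cells, against 183 and 176, and 173 and 183 CPM in LacZ cells, and the libraries of the guides overlapped. On day 3 it had 203 and 199 CPM in BRD9 KO and 177 and 188 CPM in LacZ cells. On day 5 it had 209 and 207 CPM in BRD9 KO and 178 and 189 CPM in LacZ cells. Both BRD9 KO libraries stood above both LacZ libraries on these 2 days, as libraries of the guides stood apart in one direction or the other for 51.2% of all genes on day 3 and 54.6% on day 5.

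BRD2 rose by 9.87% on day 3 (log2 fold change 0.14, SE 0.039, adjusted p = 0.0300 by edgeR) and by 13.3% on day 5 (log2 fold change 0.18, SE 0.039, adjusted p = 0.00313). The difference itself grew between days 1 and 2 and days 3 and 5, by 0.16 on the log2 scale (SE 0.039, adjusted p = 0.0146), a test that 7.43% of all genes passed and BRD2 alone among the 9. The log2 fold change of BRD2 between LacZ day 5 and LacZ day 1 was 0.033, not called (adjusted p = 0.602). The day 3 call was lost without replicate 1 of BRD9 KO day 3 (log2 fold change 0.12, adjusted p = 0.208), replicate 2 of BRD9 KO day 3 (0.15, adjusted p = 0.0705) or replicate 1 of LacZ day 3 (0.10, adjusted p = 0.264), the day 5 call without replicate 1 of LacZ day 5 (0.14, adjusted p = 0.0815), and the growth between days without replicate 2 of BRD9 KO day 1 (0.15, adjusted p = 0.0510). Averaged over the 4 days the rise was 5.42% (95% interval 2.44 to 8.48, adjusted p = 0.00917), and it kept its call with each of the 16 libraries left out in turn, at adjusted p-values of 0.00608 to 0.0347. Limma on log2(TPM + 1) gave adjusted p-values of 0.0583 for the average, 0.163 for day 3 and 0.0612 for the growth between days.

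BRD3, the other BET gene among the 9, was called in no comparison of the guides. On days 3 and 5 it had 67.5 and 70.8, and 81.1 and 79.1 CPM in BRD9 KO cells, against 73.1 and 73.1, and 85.2 and 82.8 CPM in LacZ cells. Its log2 fold changes were -0.084 on day 3 (adjusted p = 0.310 by edgeR) and -0.072 on day 5 (adjusted p = 0.339), and on days 1 and 2 they were -0.0078 and -0.016. Averaged over the 4 days the difference was -3.07% (95% interval -6.21 to 0.181, adjusted p = 0.187). The BRD9 KO libraries lay below the LacZ libraries on days 3 and 5 and overlapped them on days 1 and 2. Of all genes, 51.2% stood apart in one direction or the other on day 3 and 54.6% on day 5.

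**Figure D3:**
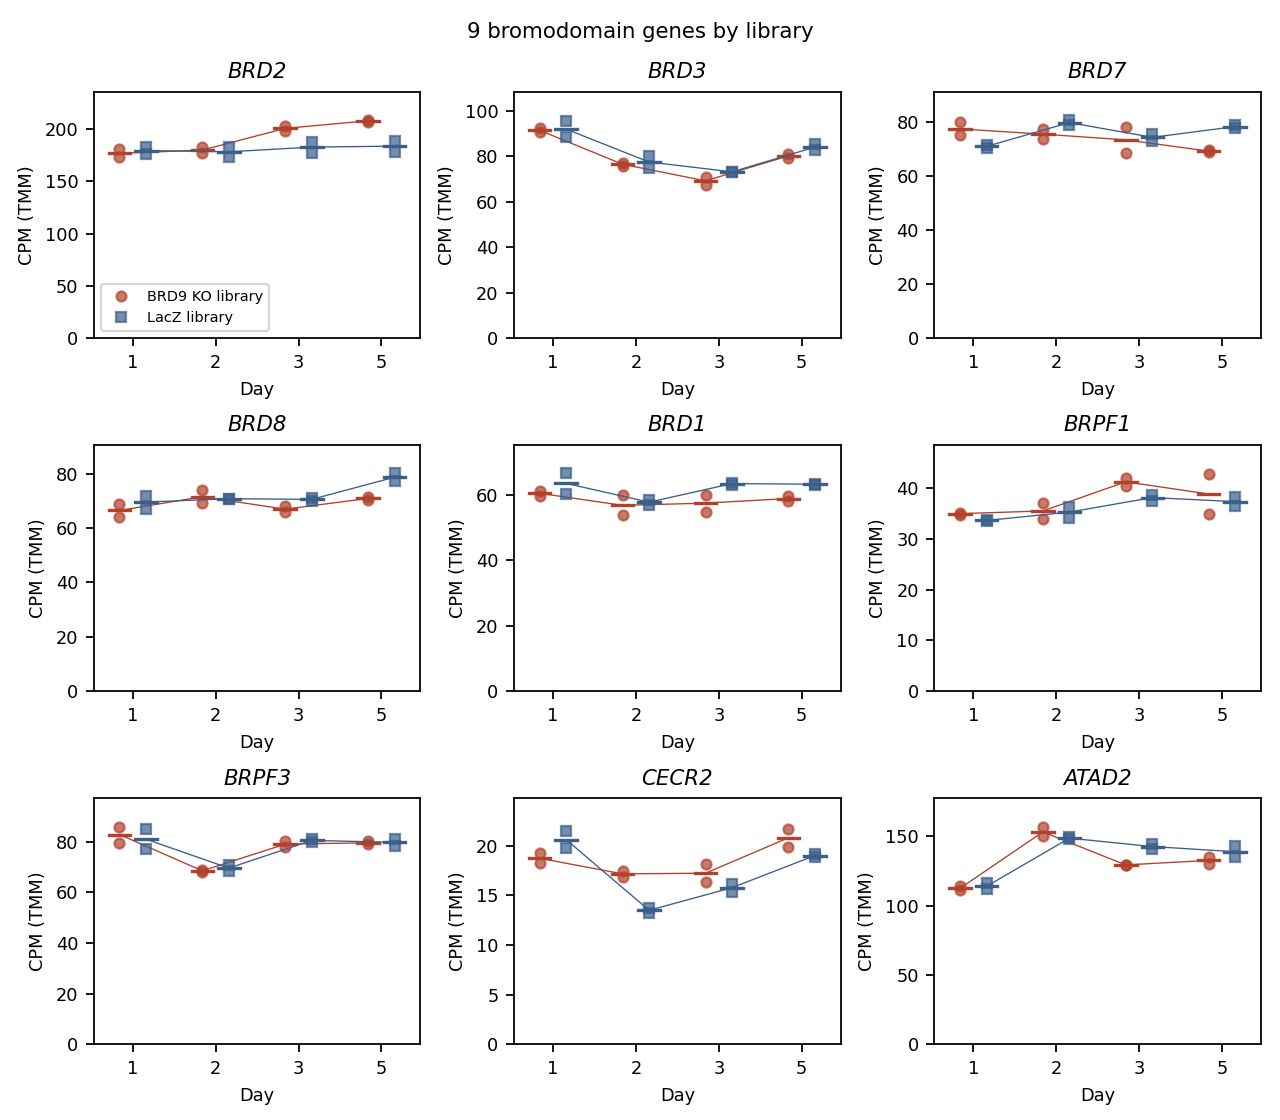
CPM of each of the 9 genes in every library by day, with an axis from 0 in each panel (BRD9 KO circles left, LacZ squares right, 2 libraries each, bars and lines at the group means). The BRD2 panel shows the BRD9 KO libraries at 199 to 209 CPM on days 3 and 5, above the LacZ libraries at 177 to 189 CPM, and the CECR2 panel shows the guides apart in opposite directions on days 1 and 2.

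BRD7, the PBAF subunit nearest to BRD9 in sequence, was called lower in BRD9 KO cells on day 5 and was not called on days 1, 2 and 3. On day 1 it had 75.04 and 79.81 CPM in BRD9 KO cells and 70.3 and 71.6 CPM in LacZ cells, a log2 fold change of 0.13 (adjusted p = 0.374 by edgeR). On days 2 and 3 the log2 fold changes were -0.076 and -0.029 (adjusted p = 0.596 and 0.814). On day 5 it had 68.8 and 69.7 CPM in BRD9 KO cells and 78.7 and 77.9 CPM in LacZ cells. The libraries of the guides did not overlap on days 1, 2 and 5, with BRD9 KO above LacZ on day 1 and below it on the others. Over all genes 41.0% did not overlap on day 1, 42.5% on day 2 and 54.6% on day 5.

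BRD7 fell by 11.5% on day 5 (95% interval -18.2 to -4.37, log2 fold change -0.18, SE 0.053, adjusted p = 0.0307 by edgeR). Leaving out any of the 4 day 5 libraries ended the call: the adjusted p was 0.110 and 0.117 without BRD9 KO day 5 replicates 1 and 2, and 0.156 and 0.0951 without LacZ day 5 replicates 1 and 2. DESeq2 gave an adjusted p of 0.0943 and limma 0.198. Averaged over the 4 days the difference was -2.55% (95% interval -6.26 to 1.3). RSEM divided reads between BRD7 and other features in all 16 libraries, the 6 BRD7 pseudogenes held at most 9 counts together in any library, and BRD7 overlaps ADCY7 on the other strand, which was at 0.89 TPM or less. Counts with a fraction, a sign of divided reads, also occurred in 16 libraries for CECR2, 15 for BRD3 and 14 for BRD2. They occurred in 4 for ATAD2, 2 for BRD8 and 0 for BRD1, BRPF1 and BRPF3.

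BRD8 was lower in BRD9 KO cells on day 5. It had 70.2 and 71.6 CPM in BRD9 KO cells and 77.3 and 80.1 CPM in LacZ cells that day, and 65.9 and 67.9 CPM in BRD9 KO cells against 70.0 and 71.1 CPM in LacZ cells on day 3. On these days the BRD9 KO libraries lay below the LacZ libraries, and on days 1 and 2 they overlapped. Over all genes 51.2% did not overlap on day 3 and 54.6% on day 5. BRD8 fell by 9.70% on day 5 (log2 fold change -0.15, SE 0.046, adjusted p = 0.0390 by edgeR), and the day 3 difference of -5.28% was not called (adjusted p = 0.362). The day 5 call was lost without any of the 4 day 5 libraries, at an adjusted p of 0.129 and 0.109 without BRD9 KO replicates 1 and 2 and 0.0743 and 0.196 without LacZ replicates 1 and 2, and in DESeq2 (adjusted p = 0.183), in limma (0.708), with no filter on low counts (0.0879) and with replicate number as a block (0.0541).

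The start of BRD8 overlaps that of KIF20A, a kinesin of cell division on the other strand, by 235 bases on chromosome 5 of GRCh37, and the kit used does not mark strand. KIF20A fell in BRD9 KO cells as well, with a log2 fold change of -0.34 on day 5 (SE 0.045, adjusted p = 3.22e-05 by edgeR) and levels of 33.7 to 51.9 TPM in BRD9 KO and 39.6 to 56.6 TPM in LacZ libraries. The part of KIF20A reads in the BRD8 result was not tested.

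Of the 3 scaffolds of the KAT6 and KAT7 acetyltransferases, BRD1 was called averaged over the 4 days and BRPF1 and BRPF3 were not; the differences among the 3 were not tested. BRD1 had 61.3 and 59.7, 53.8 and 59.9, 60.1 and 55.0, and 59.6 and 58.3 CPM on days 1, 2, 3 and 5 in BRD9 KO cells, against 66.6 and 60.5, 58.6 and 57.0, 63.2 and 63.8, and 63.1 and 63.5 CPM in LacZ cells. The BRD9 KO libraries lay below the LacZ libraries on days 3 and 5 and overlapped them on days 1 and 2. Separation of the guides held for 51.2% of all genes on day 3 and 54.6% on day 5. BRD1 was called on no single day, with log2 fold changes of -0.070, -0.033, -0.13 and -0.11, and it fell by 5.77% averaged over the 4 days (95% interval -9.59 to -1.78, log2 fold change -0.086, SE 0.028, adjusted p = 0.0401 by edgeR). That call held with replicate 2 of LacZ day 1, replicate 2 of BRD9 KO day 2, replicate 2 of LacZ day 2, replicate 1 of BRD9 KO day 3 or replicate 1 of BRD9 KO day 5 left out, and was lost with each of the 11 other libraries left out, at adjusted p-values of 0.0501 to 0.126. DESeq2 gave 0.161 and limma 0.578.

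BRPF1 had 42.8 and 34.7 CPM on day 5 in BRD9 KO cells, the widest gap between libraries of a group among the 9 genes at 20.7% of their mean, against 36.3 and 38.2 CPM in LacZ cells. The BRD9 KO libraries stood above the LacZ libraries on days 1 and 3 and overlapped them on days 2 and 5. Over all genes 41.0% did not overlap on day 1 and 51.2% on day 3. The log2 fold changes of BRPF1 were 0.058, 0.018, 0.12 and 0.036 on days 1, 2, 3 and 5. The average of 4.03% was not called (95% interval -1.72 to 10.1, adjusted p = 0.358 by edgeR). Without replicate 2 of BRD9 KO day 5 the average log2 fold change was 0.098 and the adjusted p was 0.0444. The BRPF3 libraries overlapped between the guides on each of the 4 days, and its average difference was -0.564%, with a 95% interval of -4.01 to 3.01 and an adjusted p of 0.870.

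CECR2, the least abundant of the 9, had the largest difference on a single day. It had 17.4 and 16.9 CPM on day 2 in BRD9 KO cells and 13.8 and 13.2 CPM in LacZ cells. On day 1 the order was the other way, at 19.2 and 18.2 CPM in BRD9 KO cells and 19.7 and 21.4 CPM in LacZ cells. On days 3 and 5 it had 18.1 and 16.3, and 21.7 and 19.8 CPM in BRD9 KO cells, against 16.2 and 15.4, and 18.8 and 19.2 CPM in LacZ cells. The guides did not overlap on any of the 4 days, with BRD9 KO below LacZ on day 1 and above it on days 2, 3 and 5, beside 41.0%, 42.5%, 51.2% and 54.6% of all genes without overlap on days 1, 2, 3 and 5.

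CECR2 rose by 27.3% on day 2 (95% interval 11.6 to 45.2, log2 fold change 0.35, SE 0.090, adjusted p = 0.0460 by edgeR). The log2 fold changes of -0.15, 0.14 and 0.12 on days 1, 3 and 5 were not called (adjusted p = 0.598, 0.420 and 0.435), nor was the average of 8.25% (95% interval 1.79 to 15.1, adjusted p = 0.0762). The day 2 call was lost without any of the 4 day 2 libraries, at an adjusted p of 0.301 and 0.116 without BRD9 KO replicates 1 and 2 and 0.167 and 0.246 without LacZ replicates 1 and 2, and also without each of the 4 day 1 libraries and the LacZ libraries of days 3 and 5, at 0.0518 to 0.0625. It was lost as well with replicate number as a block (adjusted p = 0.0839), with no filter on low counts (0.101) and in limma (0.444).

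ATAD2 was lower in BRD9 KO cells on day 3. It had 129 and 129 CPM in BRD9 KO cells and 144 and 141 CPM in LacZ cells that day. The guides did not overlap, as for 51.2% of all genes on day 3. On day 2 it had 149.8 and 156.3 CPM in BRD9 KO cells and 147.7 and 149.5 CPM in LacZ cells. The order that day was the other way, with BRD9 KO above LacZ and no overlap, as 42.5% of all genes did not overlap. On day 5 ATAD2 had 135.3 and 129.8 CPM in BRD9 KO cells and 143 and 135 CPM in LacZ cells, and the guides overlapped. ATAD2 fell by 9.29% on day 3 (95% interval -14.2 to -4.13, log2 fold change -0.14, SE 0.038, adjusted p = 0.0221 by edgeR), and the day 5 difference of -4.79% was not called (adjusted p = 0.256). The day 3 call was lost without replicate 1 or 2 of BRD9 KO day 3 (adjusted p = 0.118 and 0.0837) and without replicate 1 or 2 of LacZ day 3 (0.183 and 0.0631), in DESeq2 (0.0746) and in limma (0.238).

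Genes of DNA replication moved on the same day. Of a list of 22 S phase genes (MCM helicase subunits, nucleotide synthesis enzymes and origin factors), 15 fell on day 3, when 10.4% of all genes were called, and 7 fell on day 5, when 15% were, by edgeR, and the rest were not called. Their median log2 fold change was -0.18 on day 3 and -0.10 on day 5, beside medians of -9.85e-05 and -0.00078 over all genes tested. TYMS, which makes thymidylate, fell by 0.19 on the log2 scale on day 3 (SE 0.025, adjusted p = 3.26e-05), and MCM7 by 0.20 (SE 0.030, adjusted p = 0.000133). The part of cell cycle phase in the ATAD2 result was not tested. Counts of this list were lower in DESeq2 (11 on day 3) and limma (3 on day 3).

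In the control cells 3 of the 9 genes changed with time, against 25.6% of all genes tested between LacZ day 5 and LacZ day 1. ATAD2 had 143 and 135 CPM on LacZ day 5 and 112 and 116 CPM on LacZ day 1, a rise of 22.0% (log2 fold change 0.29, SE 0.039, adjusted p = 2.19e-05 by edgeR). On LacZ day 5, 18 of the 22 S phase genes were also higher than on LacZ day 1, with a median log2 fold change of 0.39. BRD8 had 77.3 and 80.1 CPM on LacZ day 5 and 71.9 and 67.2 CPM on LacZ day 1, a rise of 13.3% (adjusted p = 0.00753). BRD3 fell by 8.32%, to 85.2 and 82.8 CPM on LacZ day 5 against 95.3 and 88.4 CPM on LacZ day 1 (log2 fold change -0.13, adjusted p = 0.0411). The BRD8 call was lost without replicate 2 of LacZ day 1 (adjusted p = 0.120) or replicate 2 of LacZ day 5 (0.0714) and in limma (0.539), and the BRD3 call without replicate 1 of LacZ day 1 (0.339), LacZ day 5 replicates 1 and 2 (0.0898 and 0.193) or replicate 1 of BRD9 KO day 1 (0.0504), in DESeq2 (0.163) and in limma (0.529), while ATAD2 kept its call in all 22 alternatives. The log2 fold change of ATAD2 with time in LacZ cells exceeded in size each of its daily differences between the guides, which lay between -0.14 and 0.041, and that excess was not tested.

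**Figure D4:**
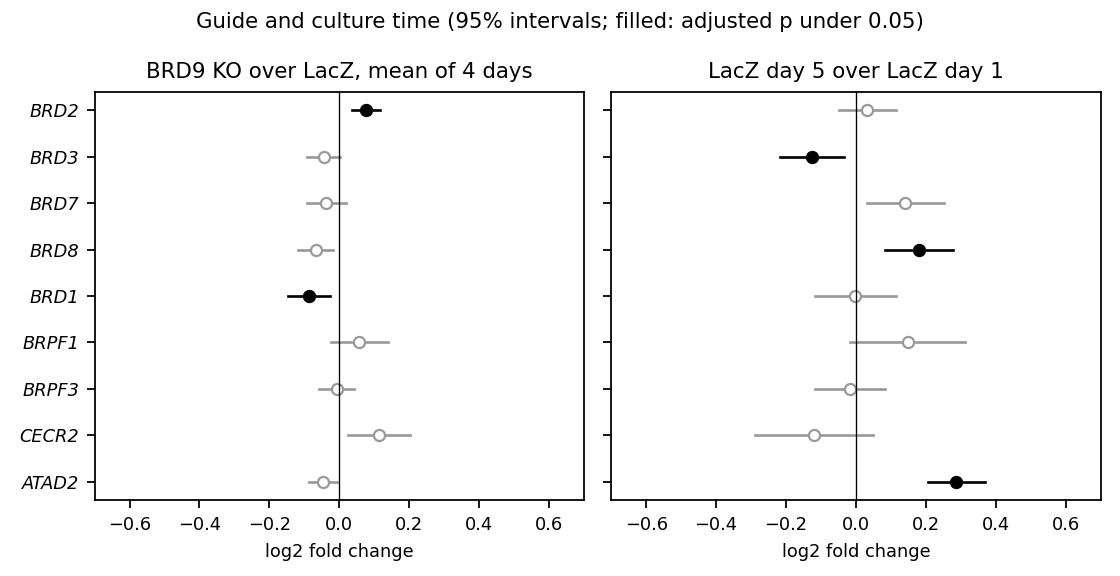
Log2 fold change of the 9 genes for BRD9 KO over LacZ averaged over the 4 days (left) and for LacZ day 5 over LacZ day 1 (right), with 95% intervals and points filled where the adjusted p by edgeR was under 0.05. BRD2 at 0.076 and BRD1 at -0.086 are filled on the left, and ATAD2 at 0.29, BRD8 at 0.18 and BRD3 at -0.13 on the right.

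Among 32 further bromodomain genes, 27 passed the filter on low counts, and averaged over the 4 days 4 were higher and 5 lower in BRD9 KO cells by edgeR, against 20.2% of all genes tested. The median log2 fold change of the 27 was 0.018. ZMYND8, a reader that recruits repressors to acetylated chromatin, had the smallest p-value of the 27. It had 71.9 and 73.0 CPM on day 5 in BRD9 KO cells and 102 and 103 CPM in LacZ cells. On day 3 it had 82.0 and 82.6 CPM in BRD9 KO cells and 99.5 and 105 CPM in LacZ cells, and on day 1 it had 128 and 116 CPM in BRD9 KO cells and 120.0 and 120.3 CPM in LacZ cells. The libraries thus overlapped on day 1 and stood apart on days 3 and 5, as did those of 51.2% and 54.6% of all genes on these 2 days. On day 2, when 2.7% of all genes were called, ZMYND8 was called lower as well. Its log2 fold change that day was -0.20 (adjusted p = 0.0121 by edgeR), a call lost in 5 of 22 alternatives. Its log2 fold change was -0.50 on day 5 (SE 0.046, adjusted p = 2.56e-07), and averaged over the 4 days it was -0.25 (adjusted p = 1.08e-07). Both kept their call in all 22 alternatives.

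PHIP, which carries paired bromodomains, fell too, with 140.3 and 141.4 CPM on day 5 in BRD9 KO cells and 177 and 178 CPM in LacZ cells (log2 fold change -0.33, SE 0.043, adjusted p = 2.25e-05 by edgeR). SMARCA4, an ATPase of SWI/SNF, and TRIM28, a corepressor, fell less, by 0.090 and 0.065 on the log2 scale averaged over the 4 days (adjusted p = 2.20e-06 and 0.00113). BAZ1B was the remaining gene that fell. KAT2A, an acetyltransferase, rose by 0.11 on the log2 scale (adjusted p = 0.00316), ASH1L, a histone methyltransferase, by 0.081 (0.00523), TRIM66 by 0.23 (0.0130) and BAZ2A by 0.061 (0.0459). The BAZ2A call was lost with 14 of the 16 libraries left out in turn (all but replicate 1 of day 5 in each guide), at adjusted p-values up to 0.150. Limma ended the calls of TRIM28, KAT2A, ASH1L, TRIM66, BAZ1B and BAZ2A, at adjusted p-values of 0.485, 0.197, 0.355, 0.991, 0.137 and 0.0835. DESeq2 ended those of ASH1L (0.0711), TRIM66 (0.0955) and BAZ2A (0.115).

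The partners of the 9 proteins were read from short lists. Of 6 partners of BRPF1, BRPF3 and BRD1, 2 fell averaged over the 4 days, a comparison in which 20.2% of all genes tested were called: KAT6A with a log2 fold change of -0.12 (SE 0.025, adjusted p = 0.00197 by edgeR) and KAT7 with -0.15 (SE 0.033, adjusted p = 0.00304). KAT7 had 48.6 and 42.8 CPM on day 5 in BRD9 KO cells and 53.4 and 52.2 CPM in LacZ cells. Of 16 partners of BRD8 in the TIP60 complex, 2 fell, the scaffold TRRAP at -0.068 and the helicase RUVBL2 at -0.075 on the log2 scale, and 14 were not called, a smaller share called than over all genes. Limma ended the calls of KAT6A, KAT7, TRRAP and RUVBL2, at adjusted p-values of 0.306, 0.0519, 0.290 and 0.120. None of the 3 PBAF subunits beside BRD7 was called in that average, with log2 fold changes of 0.023 for PBRM1, -0.0068 for ARID2 and -0.0039 for PHF10. On day 5, when BRD7 was called, 1 of the 3 was called too, against 15% of all genes. This was PHF10, with a log2 fold change of -0.12 (adjusted p = 0.04996 by edgeR). Its call was lost in 12 of 22 alternatives: DESeq2, limma, replicate number as a block, and 9 with a library left out. Without replicate 2 of LacZ day 5 its log2 fold change was -0.071.

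Of the 2 ISWI ATPases, SMARCA1 rose, with 155.5 and 161.5 CPM on day 5 in BRD9 KO cells and 139.1 and 139.2 CPM in LacZ cells. Its average log2 fold change was 0.13 (SE 0.018, adjusted p = 2.86e-05 by edgeR), and it kept this call in all 22 alternatives. SMARCA5 had -0.0012 (adjusted p = 0.974). Of 5 elongation factors and partners of BET proteins, HEXIM1, which holds the elongation kinase P-TEFb inactive, fell, with 66.9 and 68.8 CPM on day 5 in BRD9 KO cells and 85.6 and 79.2 CPM in LacZ cells. Its average log2 fold change was -0.15 (SE 0.022, adjusted p = 4.38e-05), and the other 4 of that list were not called. These counts, 1 of 2 and 1 of 5, also stand beside the 20.2% of all genes.

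RSEM's transcript length, weighted by the reads given to each transcript of a gene, was used to see whether the transcripts in use shifted. In the average of the 4 days limma called 0 of 11367 genes, 0% of those tested, with 619 genes at an unadjusted p under 0.05, of which 0 were among the 9. The largest shift in log2 length of the 9 was in BRD3, at 0.068 (SE 0.044, adjusted p = 0.954 by limma). BRD3 averaged 5353 ± 10.7 bases (SD, n = 2) on day 1 in BRD9 KO cells and 4866 ± 114 bases (SD, n = 2) in LacZ cells, and on day 2 it averaged 5274 ± 87.0 bases in BRD9 KO cells and 4679 ± 14.1 bases in LacZ cells (SD, n = 2 each), while on day 3 the order was the other way, 5024 ± 281 bases in BRD9 KO cells and 5308 ± 109 bases in LacZ cells (SD, n = 2 each). On day 5 BRD3 averaged 5090 ± 382 bases in BRD9 KO cells and 4961 ± 756 bases in LacZ cells (SD, n = 2 each). The LacZ libraries of that day stood at 4427 and 5496 bases. Differences of opposite sign cancel in the average, and length was not tested on single days.

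The genes whose level over the 8 group means was most like that of BRD2 among 12352 genes compared were NKAIN4 (Pearson's r = 0.982), TSPAN15 (0.980), RHBDF2 (0.979), PRR5 (0.979) and AGPAT6 (0.978). These values describe 8 groups that share days and guides, and were picked as the highest of all genes compared.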

How the data were processed

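The authors aligned reads to hg19 with STAR, quantified them with RSEM and tested them with DESeq2; versions are not given in the sources used here. The deposited gene tables hold RSEM's expected counts (35.7% of those above 0 carry a fraction), TPM, and a weighted transcript length (other columns were not used). Expected counts were rounded to whole numbers. edgeR 4.0.16 in R 4.3.3 kept genes by filterByExpr (minimum count 10, minimum total 15), scaled by TMM and fitted 1 mean per group to all 16 libraries (glmQLFit, glmQLFTest; common coefficient of variation 0.023, 8 residual degrees of freedom). Standard errors were taken from the F statistic. Transcript lengths were tested with limma 3.58.1 on log2 lengths of genes with at least 10 counts in every library.

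The 9 genes, the lists and the tests were chosen with earlier results of these data known. Genes named from the lists were those called with the smallest p averaged over the 4 days, up to 4 per direction for other bromodomain genes and up to 2 for partners; BAZ1B, PBRM1, ARID2, PHF10, SMARCA5, MCM7 and TYMS on day 3 and KIF20A were named after their values were seen. Alternatives were no filter, a filter of 1 CPM in 2 libraries, DESeq2's size factors, DESeq2 1.42.0, limma on log2(TPM + 1) for genes with a mean TPM of at least 0.5, a replicate block and each library left out. They were run on list genes as a choice made after seeing the data. The fits were also run on simulated counts drawn with 1 common coefficient of variation for all genes, and no call rests on that run. Coordinates are from GENCODE on GRCh37.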

Additional observations from a re-analysis of the deposited data

Results flagged for a closer look

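The difference of BRD2 between BRD9 KO and LacZ cells was larger on days 3 and 5 than on days 1 and 2, by 0.16 on the log2 scale (standard error 0.039, adjusted p = 0.0146 by edgeR's test of that difference). Its daily log2 fold changes were -0.024, 0.012, 0.14 and 0.18. The 4 BRD9 KO libraries of days 3 and 5 stood at 199 to 209 CPM, above the LacZ libraries of those days at 177 to 189 CPM. Groups of 2 libraries were too small for a search for outlying samples.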

How the results depend on the processing

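The 9 genes gave 1380 further values over the alternatives and 7 comparisons of counts, of which 1308 kept their call or lack of one, 65 lost a call, 7 gained one and 0 changed direction. Called values of BRD9 kept their call in each alternative that gave it an adjusted p, which DESeq2 did not on days 1 and 2. DESeq2 also gave none to BRD1, BRPF1 and CECR2 on day 1, to BRPF1 and CECR2 on day 2 and to CECR2 for the difference between days. The number of the 9 called in BRD9 KO over LacZ cells was 0 on day 1 in every alternative, leave-one-out included, with DESeq2 covering 6 of the 9. It was 1 on day 2, but 0 with no filter, with limma and with the replicate block, and 0 to 1 with a library left out. It was 2 on day 3, but 1 with DESeq2, 0 with limma and 0 to 2 with a library left out. On day 5 BRD8 lost its call with no filter and with the replicate block. The number called that day was 3, but 1 with DESeq2 and 1 with limma, and it changed with a library left out. Averaged over the 4 days it was 2, but 1 with DESeq2, 0 with limma and 1 to 3 with a library left out. For days 3 and 5 minus days 1 and 2 it was 1, but 0 with limma and 0 to 2 with a library left out. For LacZ day 5 over day 1 it was 3, but 1 with limma, and it changed with a library left out. In DESeq2 BRD3 lost its call in that comparison.

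The labels do not say that replicate numbers pair the libraries. On days 1, 2, 3 and 5 the deviations of equally numbered libraries from their group means had correlations of -0.0123, -0.0489, -0.0245 and -0.0176 between the guides over all genes, and -0.043, -0.12, 0.10 and 0.18 over the 6273 abundant genes, so not every day was above 0.1 and the libraries were not treated as paired. The replicate block gave 0, 0, 2 and 2 called genes of the 9 on days 1, 2, 3 and 5, 2 for the average, 1 for the difference between days and 3 for LacZ day 5 over day 1.

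Calls over all genes depended on the tool. In BRD9 KO over LacZ cells they were 81, 406, 1569 and 2250 on days 1, 2, 3 and 5 and 3041 for the average. They were 893 on day 3, 1339 on day 5 and 1829 for the average with DESeq2, and 11, 98, 388, 934 and 1215 with limma. With no filter day 1 had 290. With a library left out they were 15 to 86, 201 to 386, 841 to 1578, 1442 to 2235 and 2630 to 2857. For days 3 and 5 minus days 1 and 2 they were 1117, but 631 with DESeq2 and 299 with limma, and for LacZ day 5 over day 1 they were 3847, but 2393 and 1715. Of the 22 S phase genes 15 were called on day 3, but 3 with limma and 9 to 15 with a library left out. Of the 27 other bromodomain genes 9 were called in the average, but 3 with limma. Why the tools differ was not tested. With 2 libraries per group, the standard errors of the daily log2 fold changes of the 9 genes limit what a single day could call.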
